A study of Canis lupus familiaris with 42 samples.

Results

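The EGF receptor EGFR, its ligands HBEGF, AREG, EREG and TGFA, and the intracellular inhibitor ERRFI1 were followed in spontaneous sarcomas of dogs. These 6 genes were taken from a list of wound repair genes by symbol, out of 15115 genes measured. Each gene was read from the probe set annotated with its symbol alone that had the highest mean level over the 42 arrays. The 6 genes have 10 such probe sets of the 42924 tested, and the other 4 served as a check.

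Expression was measured on 21 arrays after the first hyperthermia treatment (heating of the tumour) and on 21 arrays of the same tumours before it, whose treatment label is none. The hyperthermia accompanied radiotherapy in every tumour, and the labels give neither the time of the later sample nor whether radiation came before it. The design names 22 tumours, of which 21 were analysed here under the numbers 1 to 21, and the labels do not say whether each came from a different dog. No tumour was sampled repeatedly without treatment, so hyperthermia, radiation and the first sampling itself cannot be told apart, and each p-value rests on how much these tumours varied.

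Ligands of the EGF family are made as membrane proteins and are released by metalloproteinases of the ADAM family. Bound ligand brings receptors into pairs, the receptors phosphorylate each other, and adaptor proteins carry the signal into the RAS and MAP kinase cascade. ERRFI1, also called MIG6, binds the active receptor kinase and blocks it, and its transcript is induced by the same signalling and by stress, as known mainly from human and mouse cells. In skin wounds this system drives the migration and growth of keratinocytes.

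All values are RMA levels (corrected for background, normalised between arrays and summarised per probe set) on a log2 scale, on which a difference of 1 is a 2-fold difference. Levels can be compared between arrays within a probe set but not between genes. The arrays had medians between 5.20 and 5.31, and 2558 of 42924 probe sets (5.96%) changed at an adjusted p under 0.05 in a limma fit with the tumour as a block. Adjusted p-values are by Benjamini-Hochberg over all 42924 probe sets, two-sided. The mean level over 9 mesenchymal markers was 11.4 to 13.2 after treatment and 11.4 to 13.1 before it, and VIM was at least at 13.62 and 13.23. LUM, one of the 9, varied widely, with lowest levels of 5.76 after and 4.32 before treatment. Levels of the 12 poly-A control probe sets, which report RNA spiked into each labelling reaction, split the tumours into 9 with high levels (6.36 to 7.98) and 12 with low levels (3.43 to 5.24). No label names a batch, so results are also given within these spike-in groups. The 3′ to 5′ contrast of control transcripts, which tracks RNA breakdown, was higher after than before treatment in 8 of 9 high spike-in tumours and in 5 of 12 low spike-in tumours. Fits with this contrast as a covariate, and without the 9 tumours in which it changed by over 0.5, are given in the closing section.

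Tumour 15 stood apart on both of its arrays. Its mean level over the 6 measured keratinocyte markers was 8.78 after treatment and 9.40 before it, against 3.97 to 5.50 and 3.94 to 5.43 in the other 20 tumours. KRT1, a keratin of the upper epidermis, was at 13.74 after and 13.50 before treatment in tumour 15, and at most at 8.85 and 8.62 elsewhere. SFN, an epithelial 14-3-3 protein, was at 10.17 after and 11.41 before, and at most at 7.47 and 6.93 elsewhere. DSG3, another of the 6, was at 6.66 after and 9.01 before, against highest values of 7.83 and 8.52 elsewhere. After treatment DSG3 was thus not highest in tumour 15. TP63, a transcription factor of basal keratinocytes, was at 3.75 after and 4.22 before, against highest values of 4.04 and 4.10 elsewhere. The 4 measured neutrophil markers averaged 10.01 after and 10.68 before, with others at most at 7.45 and 7.48, and 2 of the 4, S100A8 and S100A9, are also made by keratinocytes. The simple epithelium markers averaged 5.72 after and 4.66 before, and at most 4.60 and 4.62 elsewhere. Of these, EPCAM and CLDN4 were highest in tumour 15 in both groups, and KRT18 after treatment only. KRT8 reached 8.07 after and 7.37 before elsewhere, against 3.98 and 2.62 in tumour 15, and CDH1 5.25 and 5.63 against 4.45 and 4.55. The T cell markers averaged 5.76 after and 6.81 before, and at most 5.60 and 6.57 elsewhere. Before treatment the macrophage mean (9.14, at most 8.68 elsewhere) and the skeletal muscle mean (5.87, at most 5.63) were also highest in tumour 15, and after it they ranked 4 and 9. The endothelial mean of tumour 15 ranked 1 after treatment (8.356, at most 8.351 elsewhere) and 3 before it. Its mesenchymal mean of 12.60 after and 12.09 before lay within the range of the others. Single mesenchymal markers were lowest in tumour 15, namely DCN after treatment (12.52, at least 12.75 elsewhere), and VIM (13.23, at least 13.54) and SPARC (12.67, at least 12.72) before it. The changes of the 6 genes, their relations and the counts over gene lists are therefore given with and without tumour 15.

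With all 21 tumours, 0 of the 6 genes passed the limma test at an adjusted p under 0.05, against 7.15% of the 15115 genes. At an unadjusted p under 0.05, HBEGF and ERRFI1 were higher and EGFR was lower after treatment, 3 of 6 genes against 21.7% of all genes. The Wilcoxon signed-rank test passed HBEGF alone of the 6, and 1971 of all 42924 probe sets. Without tumour 15, HBEGF and ERRFI1 passed the limma test, both higher after treatment, 2 of 6 genes against 8.74% of all genes (4.42% in the higher direction). Tumour 15 had the lowest change of the 21 in both genes (-0.76 for HBEGF and -1.73 for ERRFI1), so leaving it out necessarily raises both changes. Over the alternatives other than leaving out 1 tumour, the adjusted p ran from 0.0063 to 0.9997 for HBEGF and from 0.00362 to 0.904 for ERRFI1. The median change of the 6 genes was 0.03 with all tumours and 0.06 without tumour 15, beside 0.01 over all 15115 genes.

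**Figure D1:**
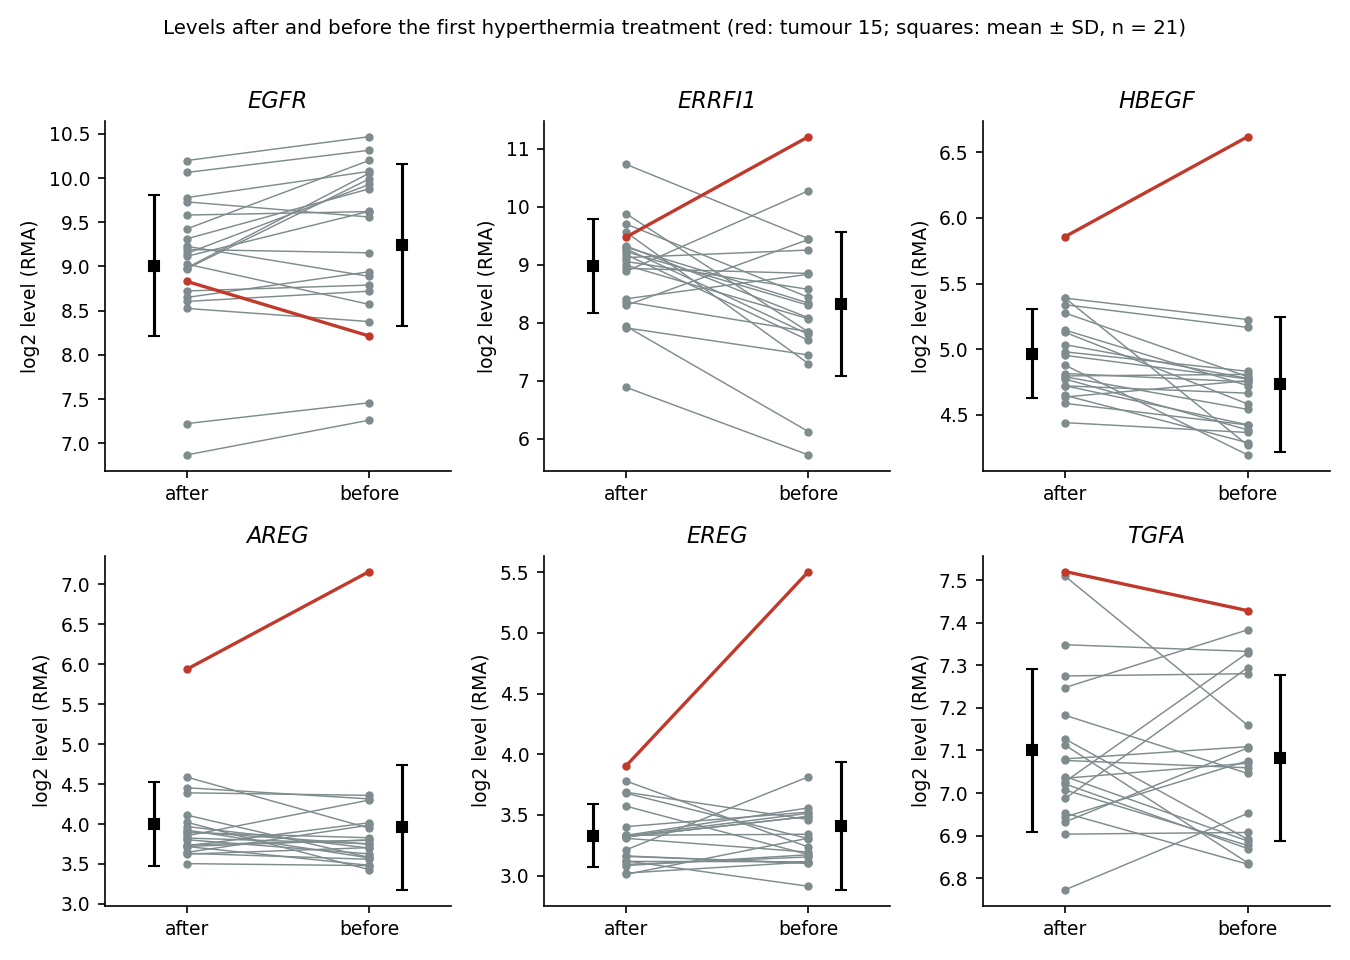
Log2 level (RMA) of each of the 6 genes in each tumour, after treatment on the left and before it on the right of each panel. Lines join the arrays of a tumour, tumour 15 is red, and squares with bars are the mean and SD over 21 tumours. The levels of the groups overlap for every gene, and for HBEGF, AREG, EREG and TGFA tumour 15 is the highest array in both groups.

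EGFR, the receptor, had levels from 6.87 to 10.20 after treatment with a median of 9.11, against 7.26 to 10.47 with a median of 9.56 before it. The groups overlapped over nearly their whole ranges, and tumour 17 was highest and tumour 19 lowest in both. EGFR averaged 9.01 ± 0.80 after and 9.24 ± 0.92 before treatment (SD, n = 21 each). The paired change was -0.23 ± 0.09 on the log2 scale (SE, 95% interval -0.42 to -0.04), a fold of 0.851, with a limma adjusted p of 0.149. The level was lower after treatment in 15 of 21 tumours, and the single changes ran from -1.07 in tumour 1 to 0.62 in tumour 15. Without tumour 15 the change was -0.28 ± 0.09 (SE, n = 20) with a limma adjusted p of 0.0575. A second EGFR probe set gave a change of -0.19 ± 0.08 (SE) with a limma adjusted p of 0.184. By that probe set the level was lower after treatment in 11 tumours and higher in 10, with a median change of -0.03. In a bulk sample, fewer cells of a type and less RNA per cell cannot be told apart.

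The EGFR probe sets ordered the tumours more alike by level than by change. Before treatment their levels had a correlation of 0.93 over the 21 tumours, whereas their changes had one of 0.57, with the same sign in 13 of 21 tumours. EGFR levels before treatment averaged 8.76 ± 0.995 in the 9 high spike-in tumours and 9.60 ± 0.69 in the 12 low spike-in tumours (SD), with a limma unadjusted p of 0.0243 and an adjusted p of 0.14. None of the 6 genes passed that adjusted comparison of levels before treatment, against 7.46% of all probe sets. EGFR, AREG and EREG had unadjusted p-values under 0.05 in it, 3 of 6 genes against 23.8% of all probe sets. The EGFR change was -0.12 in the high and -0.32 in the low spike-in tumours, with 3 of 9 and 3 of 12 tumours higher after treatment.

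HBEGF, a heparin-binding ligand released in wounds and also the receptor of diphtheria toxin, was measured by 1 probe set. Its level ran from 4.44 to 5.86 after treatment with a median of 4.88, against 4.19 to 6.62 with a median of 4.72 before it. Tumour 15 was the highest array in both groups, 1.39 above the next tumour before treatment. The mean was 4.97 ± 0.34 after and 4.73 ± 0.51 before (SD, n = 21 each). HBEGF was higher after treatment in 18 of 21 tumours, all but tumours 12, 15 and 20, and at least 2-fold higher in 1, tumour 7. The change was 0.23 ± 0.07 (SE, 95% interval 0.08 to 0.39), a fold of 1.18, with a limma adjusted p of 0.0616.

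Without tumour 15, HBEGF rose by 0.28 ± 0.06 (SE, n = 20), a fold of 1.22, with a limma adjusted p of 0.00618. In that fit 18 of 20 tumours were higher after treatment, and the highest array was 5.39 after and 5.23 before. HBEGF passed in no other fit that left out 1 tumour, where the limma adjusted p reached 0.108. The change was 0.18 in the high spike-in tumours, where 7 of 9 were higher, and 0.27 in the low ones, where 11 of 12 were higher. The difference between these groups was -0.09 with a limma adjusted p of 0.934. HBEGF lay below the median of all probe sets (5.28), a range in which array background can narrow fold changes.

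AREG (amphiregulin) and EREG (epiregulin) are ligands whose genes neighbour each other on 1 chromosome in the RefSeq assembly UU_Cfam_GSD_1.0, with 1 gene, not protein-coding, between them. AREG levels ran from 3.50 to 5.93 after treatment with a median of 3.85, against 3.43 to 7.16 with a median of 3.75 before it. Both highest values were tumour 15, 1.35 above the next tumour after treatment and 2.80 above it before. The AREG change was 0.04 ± 0.08 (SE, 95% interval -0.13 to 0.21) with a limma adjusted p of 0.862, and 14 of 21 tumours were higher. Without tumour 15 it was 0.10 ± 0.06 (SE, n = 20) with a limma adjusted p of 0.387.

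The AREG change was 0.24 in the high spike-in tumours, with 8 of 9 higher, and -0.11 in the low ones, with 6 of 12 higher. The difference of 0.35 ± 0.16 (SE) had a limma unadjusted p of 0.0334 and an adjusted p of 0.67. Across all probe sets 0.00233% passed that test of a difference in change. Tumour 15 is among the low spike-in tumours, and its AREG change of -1.22 was the lowest of the 21.

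EREG levels ran from 3.01 to 3.90 after treatment with a median of 3.32, against 2.91 to 5.50 with a median of 3.31 before it. Apart from tumour 15, the highest EREG level was 3.78 after and 3.81 before treatment. The change was -0.08 ± 0.09 (SE, 95% interval -0.26 to 0.11) with a limma adjusted p of 0.715. It was -0.002 ± 0.06 without tumour 15 (SE, n = 20), with an interval of -0.12 to 0.12 and a limma adjusted p of 0.993. The mean levels of AREG (3.96 before) and EREG (3.41 before) lay far down the array's scale, where a low level cannot be told apart from background.

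**Figure D2:**
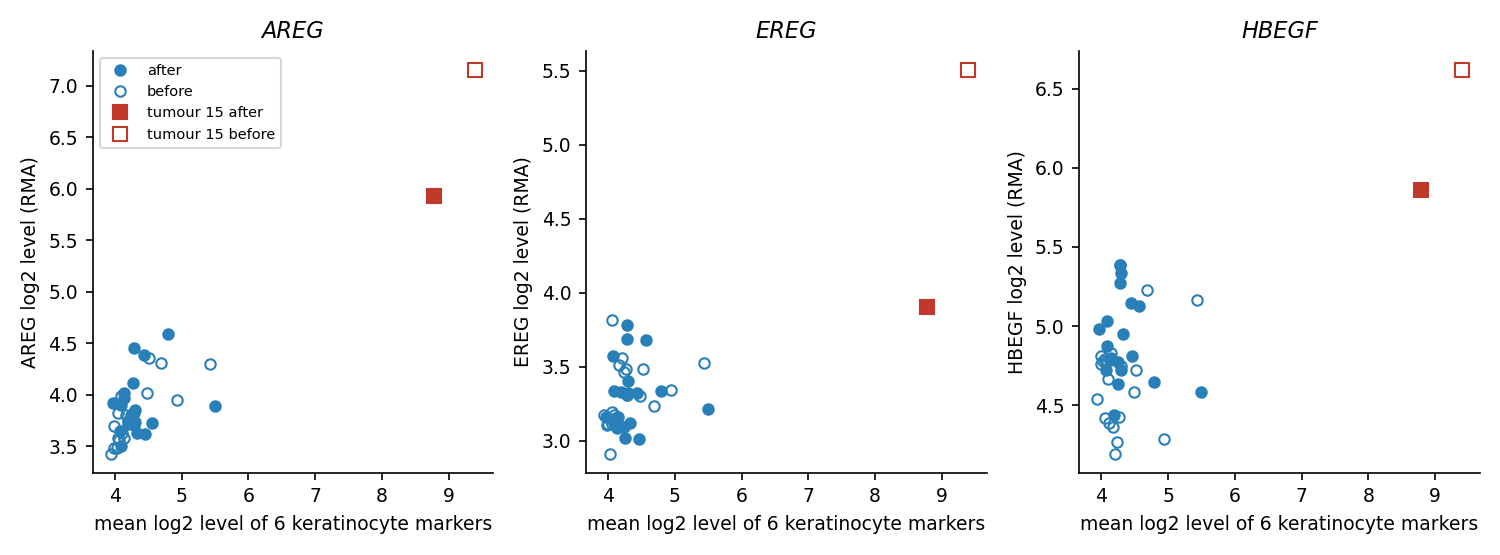
Log2 level of AREG, EREG and HBEGF (vertical axes) against the mean log2 level of the 6 measured keratinocyte markers (horizontal axes), 1 point per array, filled after treatment and open before it, with tumour 15 as red squares. Tumour 15 lies at marker means of 8.78 after and 9.40 before treatment, apart from all other arrays, whose marker means do not exceed 5.50.

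TGFA, the ligand transforming growth factor alpha, varied least. Its level ran from 6.77 to 7.52 after treatment with a median of 7.04, against 6.83 to 7.43 with a median of 7.07 before it. The groups overlapped almost wholly, and tumour 15 was highest in both by 0.01 and 0.05. The change was 0.02 ± 0.04 (SE, 95% interval -0.07 to 0.11) with a limma adjusted p of 0.884, and 11 of 21 tumours were higher. Without tumour 15 it was 0.01 ± 0.05 (SE, n = 20) with a limma adjusted p of 0.909. The SD of the TGFA change over tumours was 0.18, and 8.28% of probe sets had a smaller one. The other TGFA probe sets gave changes of 0.06 and 0.04, and their changes had correlations of -0.02 and -0.15 with those of the main one, so the 3 probe sets did not order the tumours alike.

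ERRFI1, the feedback inhibitor of the receptor kinase, varied most. Its level ran from 6.89 to 10.73 after treatment with a median of 9.12, against 5.72 to 11.21 with a median of 8.30 before it. The groups overlapped, tumour 4 was lowest in both, and the spread was narrower after treatment, with means of 8.98 ± 0.81 after and 8.33 ± 1.24 before (SD, n = 21 each). The change was 0.65 ± 0.22 (SE, 95% interval 0.20 to 1.10), a fold of 1.57, with a limma adjusted p of 0.0806. The SD of its change was 1.10, and 99.4% of probe sets had a smaller one.

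The ERRFI1 changes went both ways. The level was higher after treatment in 16 tumours and lower in 5, and it was at least 2-fold higher in 9 (tumours 1, 4, 6, 7, 10, 12, 16, 19 and 21) and at least 2-fold lower in 3 (tumours 13, 15 and 17). The extremes were 2.27 in tumour 1, with 9.56 after and 7.30 before, and -1.73 in tumour 15, with 9.48 after and 11.21 before. All 5 tumours that were lower after treatment had started above the median level before it, and of the 16 that were higher, 10 had started below it. A change contains the level before treatment, so this is a description only.

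Without tumour 15, ERRFI1 rose by 0.77 ± 0.20 (SE, n = 20), a fold of 1.70, with a limma adjusted p of 0.0192 and 16 of 20 tumours higher. It also passed with tumour 13 left out (0.75, limma adjusted p 0.0305) or tumour 17 left out (0.74, limma adjusted p 0.043), and in no other fit that left out 1 tumour. The change was 0.83 in the high spike-in tumours, with 8 of 9 higher and a limma adjusted p of 0.0485, and 0.51 in the low ones, with 8 of 12 higher and a limma adjusted p of 0.593. ERRFI1 was the only one of the 6 genes called in the high spike-in tumours alone, against 3.01% of all probe sets. The difference between them was 0.32 ± 0.44 (SE) with a limma adjusted p of 0.923. The second ERRFI1 probe set gave a change of 0.44 ± 0.19 (SE) with a limma adjusted p of 0.176, and its changes had a correlation of 0.91 with those of the first.

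**Figure D3:**
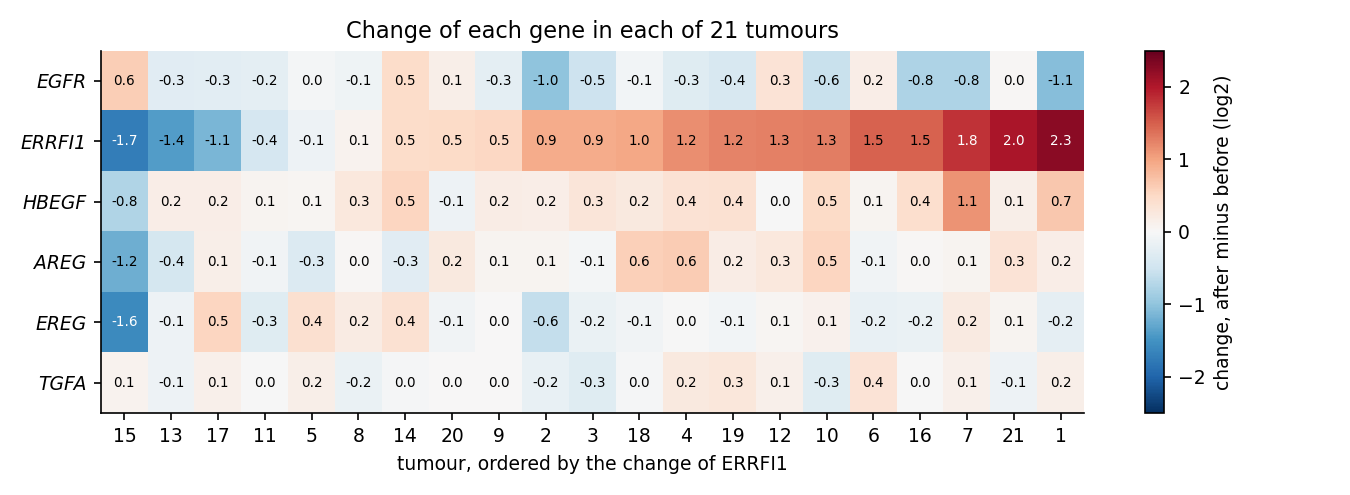
Change in log2 level, after minus before, of each gene (rows) in each of the 21 tumours (columns, ordered by the change of ERRFI1), printed in each cell and given by its colour. The ERRFI1 changes spread from -1.73 to 2.27, those of TGFA from -0.31 to 0.35, and tumour 15 holds the lowest change of ERRFI1, HBEGF, AREG and EREG.

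Relations between the genes were computed over the 21 tumours for 15 pairs, with Pearson's r and Spearman's rho, permutation p-values and adjustment over the 15. For changes, 3 pairs passed by r and 1 by both measures. The changes of EGFR and HBEGF were inversely related, with r = -0.64 (permutation, adjusted p 0.0112) and rho = -0.66 (permutation, adjusted p 0.0261). Without tumour 15, r was -0.53 and rho -0.60 (permutation p 0.0161 and 0.00563 before adjustment). The r was -0.45 without tumours 1 and 15, the farthest from the EGFR median (permutation p 0.0557), so by r the relation rests in part on those tumours. It was -0.83 in the high and -0.60 in the low spike-in tumours. The second EGFR probe set, whose changes had a correlation of 0.57 with those of the first, was not set against HBEGF.

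HBEGF and ERRFI1 changes had r = 0.61 (permutation, adjusted p 0.0131) and rho = 0.49 (permutation, adjusted p 0.13), and r was 0.38 without tumours 7 and 15 (permutation p 0.103). Without tumour 15 alone r was 0.44 and rho 0.41 (permutation p 0.0519 and 0.074 before adjustment). AREG and ERRFI1 changes had r = 0.66 (permutation, adjusted p 0.0112) and rho = 0.55 (permutation, adjusted p 0.0835). That r was 0.51 without tumours 4 and 15 (permutation p 0.0266), 0.50 without tumour 15 alone, where rho was 0.48 (permutation p 0.0257 and 0.0336 before adjustment), 0.69 in the high and 0.66 in the low spike-in tumours. With tumour 15 left out, 0 of 15 pairs of changes passed by both measures.

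For levels before treatment, 7 pairs passed by r and 2 by both measures. HBEGF and ERRFI1 had r = 0.79 (permutation p 1e-05, the smallest that the permutations can give, adjusted p 0.00015) and rho = 0.76 (permutation, adjusted p 0.00225). Without tumour 15, r was 0.76 and rho 0.72 (permutation p 0.00014 and 0.00035 before adjustment). Without tumours 1 and 15 the r was 0.76 (permutation p 0.00025), and it was 0.24 in the high and 0.84 in the low spike-in tumours. AREG and EREG had r = 0.93 (permutation, adjusted p 0.0078) and rho = 0.71 (permutation, adjusted p 0.00322). Without tumour 15, r was 0.48 and rho 0.67 (permutation p 0.0338 and 0.00167 before adjustment), and r was 0.44 without tumours 15 and 16 (permutation p 0.0583). The r was 0.47 in the high and 0.91 in the low spike-in tumours, which include tumour 15. Mean levels before treatment were 3.57 and 4.25 for AREG and 3.13 and 3.62 for EREG in the high and low spike-in tumours. The part of this split in the relation was not tested. HBEGF and AREG had r = 0.85 and rho = 0.06, and r was 0.30 without tumour 15 (permutation p 0.194), so that value rests on tumour 15. With tumour 15 left out, 1 pair passed by both measures.

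**Figure D4:**
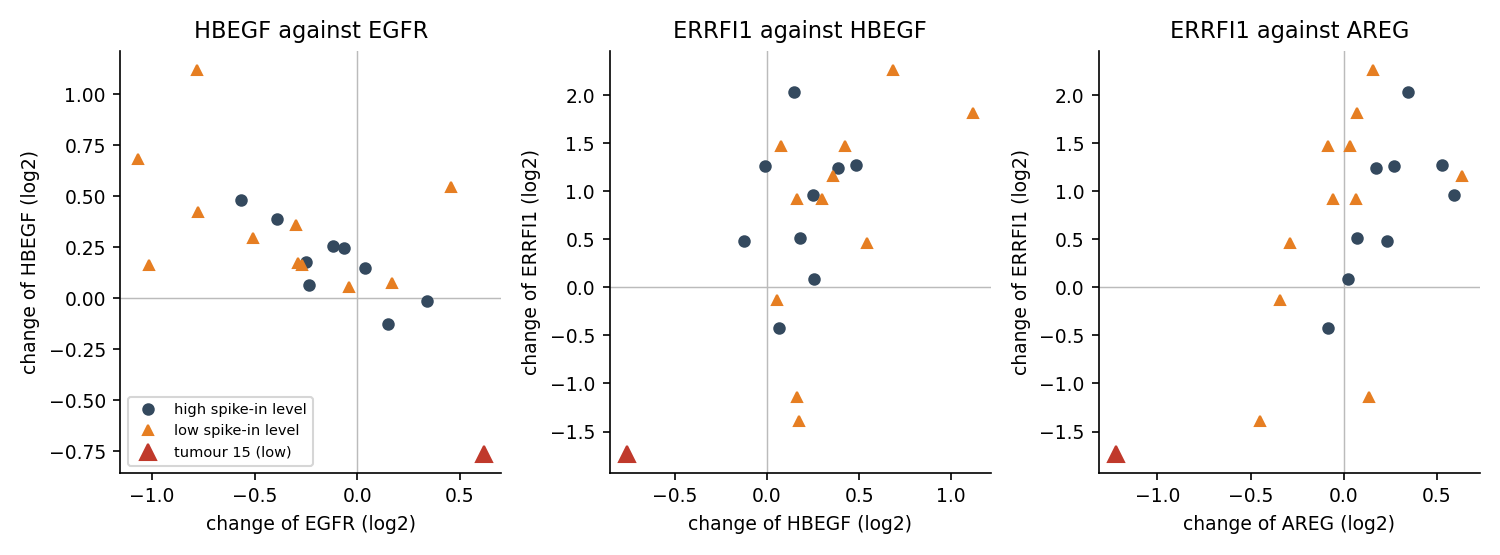
Change in log2 level, after minus before, of HBEGF against EGFR, ERRFI1 against HBEGF and ERRFI1 against AREG, 1 point per tumour, marked by spike-in group and with tumour 15 in red. Pearson's r is -0.64, 0.61 and 0.66 in the 3 panels from left to right, and tumour 15 lies in a corner of each.

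The changes of the 6 genes were also set against the mean changes of 8 cell type marker lists, 48 relations in all. None passed after adjustment, with lowest adjusted permutation p-values of 0.251 by r and 0.0878 by rho, while 7 by r and 4 by rho had an unadjusted p under 0.05. ERRFI1 and the neutrophil list had r = 0.58 and rho = 0.55 (permutation, adjusted p 0.251 and 0.263), and without tumour 15 these were 0.50 and 0.48 (permutation p 0.024 and 0.0329 before adjustment). The r was 0.36 without tumours 13 and 15. HBEGF and the simple epithelium list had r = -0.60 and rho = -0.65 (permutation, adjusted p 0.251 and 0.0878), and without tumour 15 these were -0.26 and -0.60 (permutation p 0.236 and 0.00641 before adjustment). Over the same arrays the neutrophil list had a median of 6.30 (range 4.98 to 10.01) after and 5.43 (range 5.02 to 10.68) before treatment, and 2 of its 4 genes, S100A9 and TREM1, rose. In the macrophage list MARCO and MSR1 rose and CSF1R fell, in the T cell list CD3D, CD3E, CD3G and LCK fell, and in the mesenchymal list SPARC fell (-0.28, limma adjusted p 0.0476). Without tumour 15 these held except CD3E (limma adjusted p 0.0523). CD163, CD14 and the keratinocyte marker SFN were then called as well, all higher after treatment, and COL1A1 was called lower. The SFN change was 0.26, with a limma adjusted p that rounds to 0.05. The part of these cells in the changes of the 6 genes was not tested further.

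For each gene, the genes with the most similar change over the 21 tumours were named out of 9178 genes above the median level, as a description. ERRFI1 was closest to BTG2, an antiproliferative gene (r = 0.86), KLF6, a zinc-finger transcription factor (0.85), and NFKBIZ, a regulator of NF-kB targets (0.81). Without tumour 15 these were 0.81, 0.82 and 0.77. HBEGF was closest to NDEL1 (0.82), NOCT (0.78) and MXD1 (0.77), which were 0.70, 0.64 and 0.57 without tumour 15. EGFR was closest to CCDC8 (0.80), MSRB3 (0.77) and CCDC107 (0.76), with 0.75, 0.77 and 0.79 without tumour 15. TGFA was closest to LRRN2 (0.73), ABCA9 (0.73) and LCN15 (0.71), with 0.74, 0.73 and 0.76 without it.

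The neighbours of AREG and EREG leaned on tumour 15. AREG was closest to DEDD2 (0.85), CREM (0.80) and CYP2D15 (0.76), with 0.66, 0.55 and 0.66 without that tumour. EREG was closest to ALOX12B, a lipoxygenase of the epidermis (0.84), CAPN9 (0.81) and CPA4 (0.80), with 0.52, 0.67 and 0.29 without it.

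Among the other receptors and ligands of the family, no measured gene passed the limma test. None had an unadjusted p under 0.05, against 21.7% of all genes. That was 0 of 3 receptors, where ERBB4 had a change of 0.18 ± 0.16 (adjusted p 0.612) and ERBB2 one of -0.05 ± 0.07 (adjusted p 0.771). It was also 0 of 6 ligands, where NRG1 had 0.13 ± 0.08 (adjusted p 0.416) and EPGN -0.12 ± 0.08 (adjusted p 0.449). Of 6 genes of ligand release, 0 passed at an adjusted p and 2 had an unadjusted p under 0.05, against 21.7% of all genes. These were ADAM9, a metalloproteinase (0.22 ± 0.10, limma adjusted p 0.239), and TIMP3, an inhibitor of ADAM proteins (-0.41 ± 0.15, limma adjusted p 0.102). The errors are SE over 21 tumours. Without tumour 15 the counts of called genes in these 3 lists stayed at 0.

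Of 17 genes that transmit the signal inside the cell, 1 rose and 2 fell, with a list median of 0.05. GRB2, the adaptor that links receptors to SOS and RAS, averaged 7.90 ± 0.29 after and 7.66 ± 0.27 before treatment (SD, n = 21 each). It rose by 0.24 ± 0.07 (SE) in 18 of 21 tumours with a limma adjusted p of 0.0296, and no longer passed with tumour 2, 12 or 20 left out. GAB1, a docking protein, averaged 6.23 ± 1.20 after and 6.63 ± 1.40 before (SD). Its change was -0.40 ± 0.10 (SE, limma adjusted p 0.0157), it was higher after treatment in 2 of 21 tumours, and it passed with each tumour left out but not with a random block (limma adjusted p 0.325). SHC1, another adaptor, changed by -0.20 ± 0.06 (SE, limma adjusted p 0.0446) and kept its call with tumour 4, 5, 9, 11, 13, 15 or 19 left out, but not with any of the other 14. Its call was also lost by the Wilcoxon test (adjusted p 0.0855), with a random block (0.0931), with the RNA breakdown covariate (0.108) and after renewed quantile normalisation (0.0538). That of GRB2 was lost by the Wilcoxon test (0.051). Without tumour 15, 3 of the 17 rose and 2 fell.

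Receptor down-regulation had 0 rises and 2 falls among 9 genes. SH3KBP1 (CIN85), which helps CBL draw receptors into endocytosis, averaged 8.67 ± 0.70 after and 9.11 ± 0.63 before treatment (SD, n = 21 each). It changed by -0.44 ± 0.07 (SE, limma adjusted p 0.00149) and was higher in 1 of 21 tumours. EPS15, an endocytic adaptor and EGF receptor substrate, changed by -0.28 ± 0.07 (SE, limma adjusted p 0.0193) and was higher in 6 of 21. Both kept their call with each tumour left out, and both were lower in the high and in the low spike-in tumours (-0.40 and -0.47 for SH3KBP1, -0.39 and -0.20 for EPS15). The EPS15 call was lost with a random block (limma adjusted p 0.105) and with the RNA breakdown covariate (limma adjusted p 0.0597). Without the tumours of changed 3′ to 5′ contrast, the change was -0.11 for EPS15 (limma adjusted p 0.728) and -0.27 for SH3KBP1 (limma adjusted p 0.23). Without tumour 15, 0 of the 9 rose and 3 fell.

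The genes downstream of MAP kinase were mixed. Of 8 feedback inhibitors 0 passed limma at an adjusted p under 0.05. At an unadjusted p under 0.05, 2 of the 8 passed, against 21.7% of all genes. The dual-specificity phosphatases DUSP5 (0.39 ± 0.17, limma adjusted p 0.182) and DUSP6 (0.16 ± 0.08, limma adjusted p 0.256) had positive changes (SE). Without tumour 15, DUSP5 rose by 0.51 with a limma adjusted p of 0.0195. Of 10 ERK-responsive genes 1 rose, FOSL1, an AP-1 subunit that averaged 6.18 ± 0.47 after and 5.46 ± 0.26 before treatment (SD, n = 21 each). FOSL1 rose by 0.73 ± 0.12 (SE, limma adjusted p 0.00139), 18 of 21 tumours were higher, and the call held with each tumour left out. IER3, a stress-inducible early gene of the same list, had 0.32 ± 0.12 (SE, limma adjusted p 0.128). At an unadjusted p under 0.05, 2 of the 10 were higher and 1 was lower, against 21.7% of all genes in either direction. The lower one was MYC (-0.23 ± 0.11, SE, limma adjusted p 0.236).

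Of 12 other growth factors of wound repair, 1 rose. FGF2, a fibroblast growth factor, averaged 5.89 ± 1.03 after and 4.83 ± 0.95 before treatment (SD, n = 21 each), a rise of 1.06 ± 0.19 (SE), 2.09-fold, with a limma adjusted p of 0.00226. It was higher in 17 of 21 tumours, its change was 1.27 in the high and 0.90 in the low spike-in tumours, and it passed with each tumour left out. VEGFA had 0.42 ± 0.16 (SE, limma adjusted p 0.123). At an unadjusted p under 0.05, 2 of the 12 were higher and 1 was lower, against 21.7% of all genes in either direction. The lower one was IGF1 (-0.41 ± 0.19, SE, limma adjusted p 0.218). Without tumour 15 the counts of called genes stayed at 1 rise and 0 falls, for this list and for the ERK-responsive genes. Of the 7 called pathway genes, 0 kept their call in the low spike-in tumours alone, and 1, GAB1, kept it without the tumours of changed 3′ to 5′ contrast, where FOSL1 had a change of 0.47 (limma adjusted p 0.318) and FGF2 one of 0.82 (limma adjusted p 0.293). With no pairing of the tumours, FOSL1 alone of the 7 kept it. Of all these lists, the background over 15115 genes was 4.02% called higher and 3.13% called lower. For the counts without tumour 15 it was 8.74% called in either direction and 4.42% called higher.

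**Figure D5:**
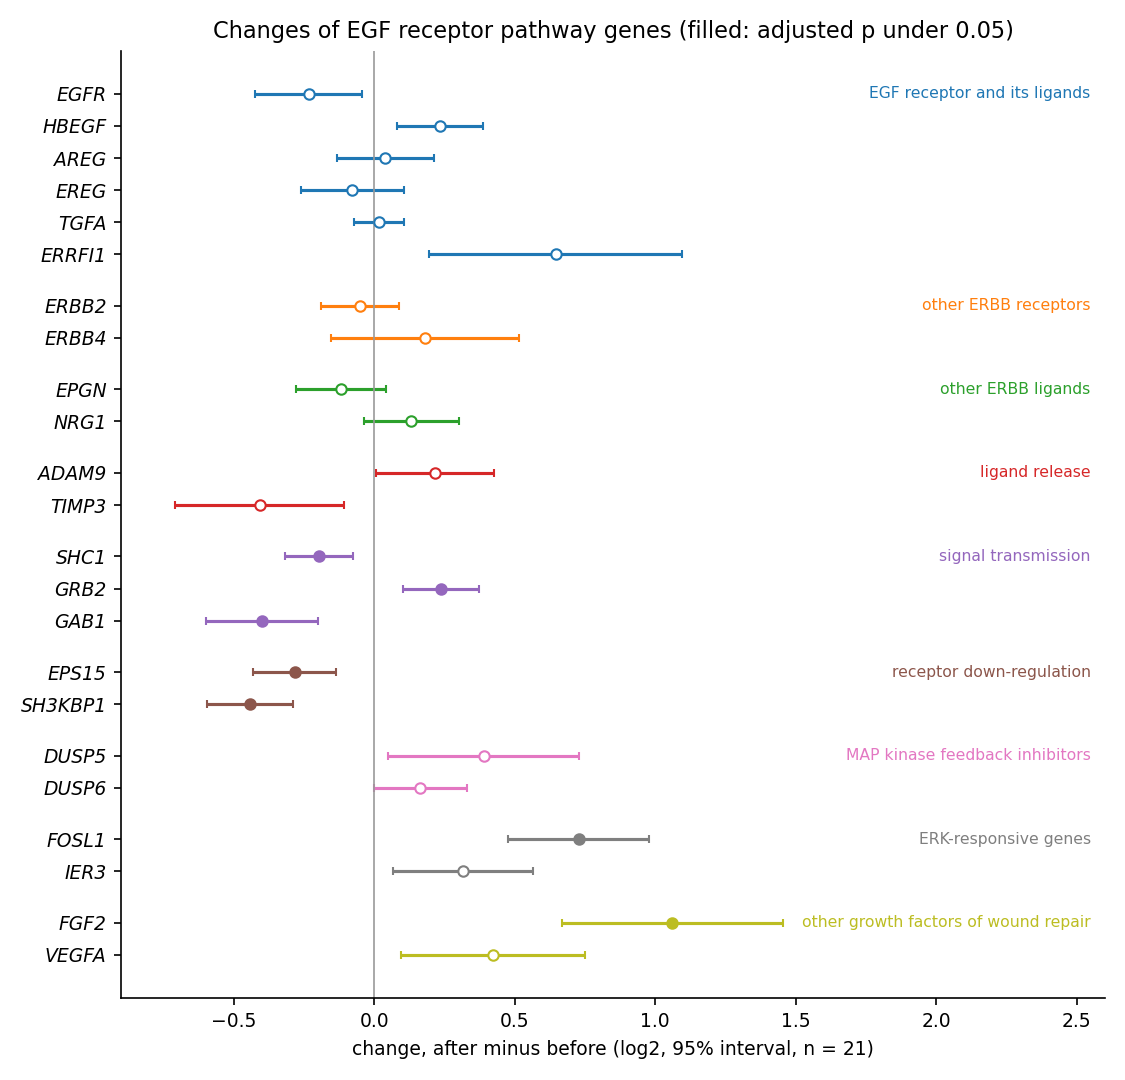
Mean change in log2 level, after minus before, with its 95% interval over 21 tumours, of the 6 genes and of the genes named from each pathway list. Filled points passed limma at an adjusted p under 0.05, which are GRB2, FOSL1 and FGF2 above 0 and SHC1, GAB1, EPS15 and SH3KBP1 below it.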

How the data were processed

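Tissue was kept in RNAlater, and biotin-labelled RNA was hybridised to Affymetrix canine arrays, per the labels' protocols. The authors deposited log2 levels made with RMA and Affymetrix Expression Console, per the submitters' processing notes, whose versions are not given in the sources used here. Of 43035 probe sets, 111 controls were left out. Platform annotation gave 1 symbol to 29254 probe sets, several to 439 and none here to 13231, and 27680 of the 29254 matched a current gene table.

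Arrays were paired by the tumour code in their titles, as the design describes. After removal of group means, 21 of 21 pairs matched best (same-tumour r 0.44 to 0.90, highest other r 0.66). All probe sets were fitted with limma 3.58.1 in R 4.3.3, tumour as a block, two-sided, Benjamini-Hochberg adjusted over 42924, at 0.05, and the fit was tested on simulated data. Permutations numbered 100000. Permutation tests ran in NumPy 2.4.6, and SciPy 1.17.1 gave their ranks, the Wilcoxon test and the adjustment of both. Tables were handled in pandas 2.3.3 under Python 3.11.15, and plots were drawn with Matplotlib 3.10.9.

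The 6 genes, the lists and the tests were chosen with earlier results of these data known. Named by rule are the 6 genes, every called pathway gene, the 2 lowest p-values per pathway list, and 3 closest genes per member. Other genes, such as the called markers, were named after their values were seen. Spike-in groups were split at the level 5.63. Alternatives were no block, a random block, a median-level filter, array weights, robust shrinkage with a trend, median centring, quantile normalisation run again, a covariate for RNA breakdown, the Wilcoxon test, adjustment over genes, each spike-in group alone, the other probe sets and each tumour left out. In all, 3 more were added after seeing the data: tumours 13 and 15 left out, tumours with a 3′ to 5′ contrast change over 0.5 left out, and relations without tumour 15.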

Additional observations from a re-analysis of the deposited data

How the results depend on the processing

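Of the 42924 probe sets 2558 were called by limma with the tumour as a block. With no replicate block, that is without the pairing, 30 were called, with 1 probe set per gene 1189, with a covariate for RNA breakdown (the 3′ to 5′ contrast) 1605, in the high spike-in tumours 1293, in the low ones 0 (4989 at an unadjusted p under 0.05), without tumours 13 and 15 3861, and without the tumours of changed 3′ to 5′ contrast 10. Leaving out 1 tumour gave 1816 to 3171. HBEGF passed by the Wilcoxon test (median change 0.18), with array weights (0.24) and without tumours 13 and 15 (0.29), and its changes with 1 tumour left out ran from 0.19 to 0.28. ERRFI1 passed with array weights (0.68), in the high spike-in tumours (0.83) and without tumours 13 and 15 (0.88), and ran from 0.57 to 0.77 with 1 tumour left out. Over the alternatives that leave out no single tumour, the adjusted p ran from 0.0063 to 0.9997 for HBEGF and from 0.00362 to 0.904 for ERRFI1, and without the tumours of changed contrast it was 0.481 and 0.578. AREG turned to -0.018 with the covariate, -0.111 in the low spike-in tumours and -0.0050 without the tumours of changed contrast, EREG to 0.0045 without tumours 13 and 15, and TGFA to -0.025 in the high spike-in tumours. EGFR stayed negative and uncalled, from -0.32 to -0.12. With the covariate for RNA breakdown, HBEGF changed by 0.24 (limma adjusted p 0.0845) and ERRFI1 by 0.53 (limma adjusted p 0.197), and neither passed. In that fit the changes of EGFR, EREG and TGFA were -0.23, -0.075 and 0.018. Without the tumours of changed contrast, HBEGF changed by 0.28, ERRFI1 by 0.58, EGFR by -0.17, EREG by -0.035 and TGFA by 0.11. ERBB2 was 0.033 and ADAM9 -0.022 in the high spike-in tumours. Without tumour 15 the pairs that passed both measures numbered 0 for changes and 1 for levels before. Of 372 values of 27 further named genes, 282 kept direction and side of the threshold, 83 no longer passed, 5 newly passed and 2 turned. The cause of these differences was not tested. HBEGF, AREG and EREG have no value under the filter at the median level (5.28), which lies above their means.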
